A study of Mus musculus with 24 samples.

Results

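Gene expression was measured by RNA-seq in 24 libraries, of which 12 carry the label of bone marrow-derived macrophages (BMDMs). The subject here is the pair of control BMDM libraries numbered 3, named WT control 3 and CRE control 3 after their genotype labels. They are set against WT control 1, CRE control 1 and CRE control 2, the comparison controls, so that 2 of the 6 control BMDM libraries are compared with 3. The 2 libraries were selected on measured values of this very contrast, high collagen and low macrophage transcripts, and the control comparison is therefore a description with no test. It supports no statement on what the cells were. WT control 2 was set aside because it held some fibroblast-type RNA, and its values are given beside the others.

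By the methods, marrow came from mice with loxP-flanked Tmem173, the gene encoding STING, on a C57BL/6N background. The methods describe tamoxifen injection of such mice, without saying so of the marrow donors in particular. WT libraries came from mice without Cre, and CRE libraries from mice with the tamoxifen-inducible Cre (CreERT2) under control of Lyz2, a gene of myeloid cells. Control cells received no agonist. DMXAA libraries came from cells given DMXAA, which activates STING of the mouse. The labels give its dose as 40 µM and the methods in µg/mL, so the concentration is uncertain. BMDMs were grown from marrow with medium conditioned by L929 cells, a mouse fibroblast line, and the bone marrow-derived dendritic cells (BMDCs) with GM-CSF and IL-4. The methods give an age in weeks at tamoxifen injection for mice of these genotypes, but do not name marrow donors separately. No label says that libraries of a group came from separate animals or cultures, so p-values measure only the spread between these libraries.

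Fibroblasts and related mesenchymal cells build the extracellular matrix. They secrete fibrillar collagens with the enzymes that fold and crosslink them, carry receptors for platelet-derived growth factor, and use transcription factors such as Prrx1 and Twist1. Macrophages depend on the receptor encoded by Csf1r and on the transcription factor PU.1, encoded by Spi1, and are rich in lysosomal proteases, Fc receptors and complement C1q. Expression of Ptprc, which encodes CD45, is a common feature of leukocytes.

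Total counts lay between 16768345 and 18900188 in the libraries numbered 3 and between 16470157 and 18912887 over all 12 BMDM libraries, so depth did not separate them. Mitochondrial genes held 2.17% and 1.93% of counts in WT control 3 and CRE control 3 and 1.32% to 1.37% in the comparison controls, and the part of this difference in the results was not tested. The 10 most counted genes held 5.66% and 6.30% of counts in the pair and 10.6% to 12.2% in the comparison controls. Across 12898 genes, which are not independent replicates, Pearson's r of log2 CPM, where CPM is a gene's count scaled to a fixed library total, was 0.972 between WT control 3 and CRE control 3. Each was at 0.985 and 0.982 with the DMXAA library of its own label and number, and between 0.544 and 0.573 with the comparison controls. CRE control 1 and CRE control 2 had an r of 0.997, and their counts differed by more than sampling noise (chi-square per degree of freedom 3.09). This value was 33.5 and 36.9 between WT control 1 and each of them. Both were kept as separate libraries, but whether they share a culture is not given by the labels and was not tested. If they do, the spread among the comparison controls is understated.

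FPKM reached 1 in 2 or more of the 5 libraries for 11952 genes, of which 3046 were apart, meaning that the 2 and the 3 libraries did not overlap and the fitted difference was at least 4-fold. Of these, 1438 genes were higher in the libraries numbered 3 (12.0% of the genes) and 1608 were lower (13.5%). A further 3 genes higher and 16 lower passed 4-fold with overlapping libraries. The filter lets through genes that are expressed in only 1 of the groups, so counts and medians below describe the libraries and are no support for a difference. The smallest differences among apart genes were 2.0013 on the log2 scale in Socs5 and 2.0014 in Lrrc8c, and -2.0001 in Mlh3 and -2.0003 in Zdhhc21. Just outside the limit lay Stbd1 at 1.9933 and Evl at -1.9992. The median over all 11952 genes was -0.0097. Fitted differences use TMM scaling, and scaling by total counts instead would add a median of 0.338 over the genes to the log2 difference.

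Tmem173 (ENSMUSG00000024349) was at 49.5 CPM in WT control 3 and 33.7 CPM in CRE control 3, against 37.9 CPM in WT control 1, 25.4 CPM in CRE control 1 and 21.2 CPM in CRE control 2. The groups overlapped, with a log2 difference of 0.24 that ranged from -0.04867 to 0.4711 with 1 library left out, so that its direction turned, and WT control 2 was at 25.4 CPM. Among controls, the CRE library of each number was below the WT library of that number, but counts over the whole gene do not show whether the floxed part is present.

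In each of the 5 marker genes that define the contrast, the libraries numbered 3 and the comparison controls did not overlap. Col1a1 (ENSMUSG00000001506), a chain of type I collagen, was at 4032 and 8959 CPM in WT control 3 and CRE control 3, and at 22.3, 16.4 and 17.5 CPM in the comparison controls. Col1a2 (ENSMUSG00000029661), its partner chain, was at 5443 and 6907 CPM, against 31.4, 25.4 and 29.5 CPM. The fitted differences were 277-fold for Col1a1 and 171-fold for Col1a2. Lyz2 (ENSMUSG00000069516), lysozyme of myeloid cells and the gene that drives the Cre, was at 1.45 and 0.895 CPM in the pair and at 13620, 7086 and 7155 CPM in the comparison controls, a fitted difference of 9800-fold. Csf1r (ENSMUSG00000024621) was at 3.39 and 5.01 CPM against 2045, 1984 and 1986 CPM, or 601-fold. Cd68 (ENSMUSG00000018774), a glycoprotein of macrophage lysosomes, was at 1.39 and 1.13 CPM against 1582, 1798 and 1857 CPM, or 1740-fold. In bulk RNA, fewer cells of a type and less RNA per cell cannot be told apart. These defining genes go against the BMDM label of the 2 libraries, which are therefore called by their number throughout.

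**Figure D1:**
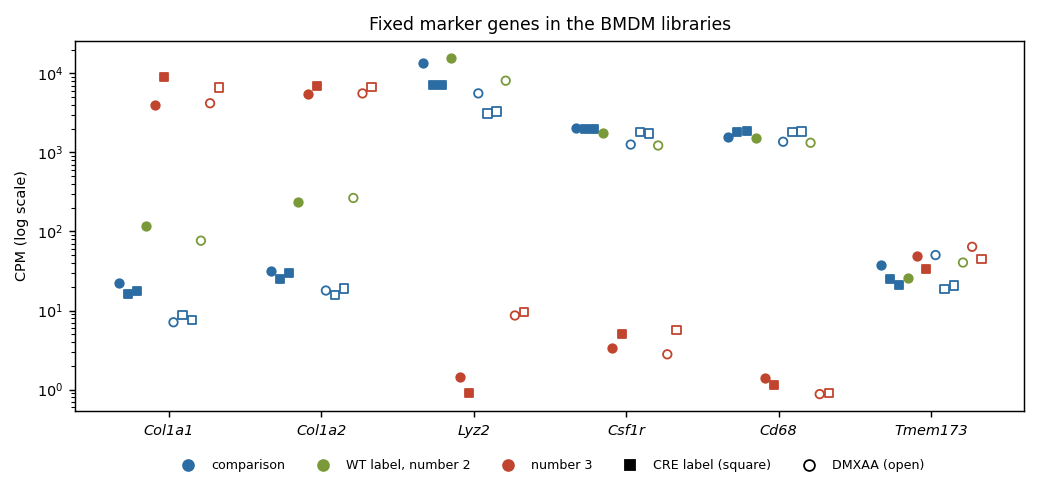
CPM on a log axis of the 6 fixed genes in the 12 BMDM libraries, with 1 point per library, circles for WT and squares for CRE, filled for control and open for DMXAA. The 4 libraries numbered 3 (red) lie above the comparison libraries (blue) in Col1a1 and Col1a2 and below them in Lyz2, Csf1r and Cd68, the 2 libraries of the WT label numbered 2 (green) are raised in both collagen genes, and the groups overlap in Tmem173.

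Promoter sequences of 5 genes are shown because the genes apart in opposite directions differed in the letters their promoters hold. They come from RefSeq on GRCm38.p6 and span the 250 bases before the annotated start, written 5′ to 3′ on the strand of the gene. Capitals mark a match to the PU.1 core AGGAAGT, to the TEAD motif ACATTCC or to the AP-1 motif TGACTCA on either strand, and none of these strings contains another. Col1a2 (chr6:4505368-4505617, plus strand) held none of the 3, and this window lies inside the gene span of the deposited table, which starts further upstream. Yap1 (chr9:8004597-8004846, minus strand), a co-activator that acts through TEAD factors, held the TEAD motif at -141. Lyz2 (chr10:117282273-117282522, minus strand) held the PU.1 core at -100, and the end of its window overlaps the gene span of the deposited table. C1qb (chr4:136886201-136886450, minus strand), a chain of complement C1q, held the PU.1 core at -53. Cd68 (chr11:69666171-69666420, minus strand) held the AP-1 motif at -149 and at -24. Col1a1 had no entry in the sequence table.
Col1a2: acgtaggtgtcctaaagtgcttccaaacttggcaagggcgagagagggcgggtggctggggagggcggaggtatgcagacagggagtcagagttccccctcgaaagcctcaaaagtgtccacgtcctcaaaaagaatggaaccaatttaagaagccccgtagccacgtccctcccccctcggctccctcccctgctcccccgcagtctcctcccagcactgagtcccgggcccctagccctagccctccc
Yap1: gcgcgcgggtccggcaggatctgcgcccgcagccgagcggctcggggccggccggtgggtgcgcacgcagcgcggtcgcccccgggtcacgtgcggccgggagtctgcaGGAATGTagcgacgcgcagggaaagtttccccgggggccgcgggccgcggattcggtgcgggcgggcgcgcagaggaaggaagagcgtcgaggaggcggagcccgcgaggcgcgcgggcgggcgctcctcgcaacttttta
Lyz2: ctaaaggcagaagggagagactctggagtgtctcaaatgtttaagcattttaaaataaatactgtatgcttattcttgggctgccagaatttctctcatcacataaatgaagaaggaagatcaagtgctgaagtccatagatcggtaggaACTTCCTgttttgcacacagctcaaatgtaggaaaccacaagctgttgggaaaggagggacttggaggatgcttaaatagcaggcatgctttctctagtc
C1qb: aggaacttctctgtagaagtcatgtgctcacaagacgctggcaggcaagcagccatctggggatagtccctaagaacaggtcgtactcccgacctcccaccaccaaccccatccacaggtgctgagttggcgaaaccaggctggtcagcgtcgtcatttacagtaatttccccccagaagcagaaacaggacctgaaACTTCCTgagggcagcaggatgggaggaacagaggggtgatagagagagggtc
Cd68: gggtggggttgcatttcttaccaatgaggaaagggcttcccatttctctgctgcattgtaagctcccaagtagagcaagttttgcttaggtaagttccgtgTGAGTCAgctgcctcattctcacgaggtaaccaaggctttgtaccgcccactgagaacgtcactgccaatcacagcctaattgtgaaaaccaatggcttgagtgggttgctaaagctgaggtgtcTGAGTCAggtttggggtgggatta

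Counted over windows from 250 bases before to 50 bases after the start, the PU.1 core was in 269 of 1485 promoters (18.1%) of the genes lower in the libraries numbered 3. It was in 81 of 1256 promoters (6.45%) of the genes higher there, in 9.33% of promoters of all genes that passed the filter and in 9.35% of the whole table. The leukocyte signalling genes held it in 15 of 32 promoters and the macrophage surface genes in 8 of 28. The TEAD motif was in 4.7% of promoters of the higher genes, 2.02% of the lower genes, 2.63% of all that passed and 3.85% of the whole table. The YAP and TEAD pathway genes held it in 5 of 16 promoters. The AP-1 motif differed little, with 5.1% among higher genes, 5.19% among lower genes, 3.7% among all that passed and 5.2% of the whole table. Sequences matched 969 of the 1438 higher genes and 1153 of the 1608 lower genes by symbol, and a gene may have several promoters. A match is a description of letters and not a bound site.

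By the rule for the largest differences, the 10 genes furthest above the comparison controls were Ptn, Fbln1, Msln, Gm5886, Ifi202b, Aspn, Cxcl5, Anxa8, Dlk1 and Mmp3. Ptn, a secreted heparin-binding growth factor, was at 1259 and 406 CPM in WT control 3 and CRE control 3 and at 0 in each comparison control, at least 3920-fold higher against a floor of 3 counts per library. Cxcl5, a chemokine that attracts neutrophils, was at 1819 and 193 CPM against at most 0.177 CPM, at least 4720-fold higher. Dlk1, an imprinted membrane protein of preadipocytes and stromal cells, was at 846 and 379 CPM against at most 0.159 CPM, at least 2890-fold higher. The matrix proteins Fbln1 and Aspn were at 226 and 114 CPM and at 68.7 and 117 CPM in the pair, and both had 0 counts in every comparison control. Msln, mesothelin, a surface protein of mesothelial cells, was at 171 and 71.6 CPM and also at 0 in the comparison controls. Mmp3, a matrix metalloprotease, was at 195 and 171 CPM against at most 0.059 CPM. Gm5886 is annotated as a pseudogene, and reads that it shares with a related gene could have been assigned to it. Anxa8 was at 136 and 426 CPM in the pair. Of these 10 genes, Ptn, Msln, Gm5886, Cxcl5, Anxa8 and Dlk1 differed by at least 2-fold between WT control 3 and CRE control 3. Ifi202b, an interferon-inducible gene whose expression differs between mouse strains, was at 126 and 71.1 CPM in the pair and at 0 in the comparison controls.

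The 10 genes furthest below were Ctss, Adgre1, C1qb, Myo1f, C1qc, Cd84, Tyrobp, Fcgr3, Hk3 and C5ar1, and each had 0 counts in both libraries numbered 3. Ctss, cathepsin S, was at 3808, 5937 and 5971 CPM in the comparison controls, so that the libraries numbered 3 were at least 38400-fold lower against the floor. Adgre1, which encodes the macrophage antigen F4/80, was at 986 to 1077 CPM in the comparison controls, at least 7420-fold above the pair. C1qb was at 963 to 1029 CPM in the comparison controls and C1qc at 846 to 914.9 CPM. Tyrobp, an adaptor of activating myeloid receptors, was at 701 to 846 CPM in the comparison controls, and C5ar1, the receptor of complement C5a, was at 497 to 678 CPM. The bounds for these 10 genes are set by depth and by the floor and would grow with more reads.

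Collagen genes were higher, and Col1a1 and Col1a2, which served to choose the libraries, held a large part of their sum. Of 18 listed fibrillar and network collagens, 15 passed the filter, 14 were apart and higher, 0 were apart and lower, and the median log2 difference was 6.85. The list summed to 17100 and 25310 CPM in the pair and to between 189 and 235 CPM in the comparison controls. Col3a1, the chain of type III collagen, was at 1640 and 2258 CPM against 1.36 to 2.97 CPM, a log2 difference of 9.55. Col6a3 and Col4a2, chains of the microfibrillar and basement membrane collagens, had differences of 8.31 and 8.09. The exception was Col18a1, at 38.3 and 96.6 CPM in the pair and at 108 to 130 CPM in the comparison controls. Col11a1, Col14a1 and Col15a1 did not pass the filter.

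The machinery that folds and crosslinks collagen was higher as well, but less evenly. Of 20 listed genes, 19 passed the filter and 13 were apart and higher, with 0 apart and lower and a median log2 difference of 4.11. Loxl4, a lysyl oxidase that crosslinks collagen, was at 216 and 142 CPM against 0.053 to 0.165 CPM, at least 847-fold higher. Pcolce, which enhances the cleavage of procollagen, was at 1216 and 882 CPM against 2.09 to 2.30 CPM. Loxl1 and Serpinh1, a lysyl oxidase and the collagen chaperone HSP47, had log2 differences of 7.47 and 7.21. The 6 members that passed but were not apart were P3h1, Plod1, Plod3, P3h3, P4ha1 and Crtap, modifying enzymes or partners of procollagen, with log2 differences between -0.73 and 1.56. Loxl2 did not pass the filter.

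Matrix glycoproteins and proteoglycans repeated the pattern. Of 33 listed, 25 passed the filter, 23 were apart and higher and 0 were apart and lower, with a median of 6.65, or 6.12 with members at the floor set to their bound. Vcan, the large proteoglycan versican, was at 1013 and 758 CPM against 0.425 to 1.15 CPM. Fbln2, a fibulin of elastic fibres and basement membranes, was at 1390 and 2305 CPM against 3.01 to 3.63 CPM. Nid1, which links laminin to type IV collagen, was at 1192 and 273 CPM, a wider gap within the pair than in Vcan or Fbln2, against 0.649 to 2.31 CPM. Ctgf and Emilin1 passed but were not apart.

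Surface receptors of mesenchymal cells were higher in most cases. Of 32 listed, 26 passed the filter, 19 were apart and higher and 1, Eng, was apart and lower, with a median of 6.04. Thy1, a glycoprotein of fibroblasts and T cells, was at 437 and 361 CPM against 0.055 to 0.177 CPM, at least 1890-fold higher. Pdgfra, a receptor for platelet-derived growth factor, was at 530 and 172 CPM against 0.495 to 0.956 CPM. Cd248, the stromal protein endosialin, and S1pr3, a receptor of sphingosine 1-phosphate, had log2 differences of 8.97 and 7.33. Eng, endoglin, was at 4.39 and 3.88 CPM against 57.9 to 64.3 CPM. Fap, the fibroblast activation protein, did not pass the filter and was at 0 and 0.537 CPM in the pair, and Lum, a fixed fibroblast marker among the matrix proteins, was at 0.334 and 0.060 CPM.

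Contractile and actin-linked genes were higher in most members that passed. Of 22 listed and 21 in the table, 17 passed the filter, 12 were apart and higher and 0 were apart and lower, with a median of 4.26. Acta2, smooth muscle actin, was at 682 and 1524 CPM against 10.5 to 12.3 CPM. Cavin1, Cnn3 and Cald1, a caveolar coat protein, calponin 3 and caldesmon, had log2 differences of 7.21, 6.77 and 6.25. Tagln and Cnn1, markers of differentiated smooth muscle, did not pass the filter and stood below 0.73 CPM in both libraries. Vim, which mesenchymal cells and macrophages share, was at 5137 and 4585 CPM against 5104 to 5408 CPM.

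Transcription factors of connective tissue were higher in nearly every member that passed. Of 30 listed, 20 passed the filter, 19 were apart and higher, 0 were apart and lower, and the median was 6.66, or 6.46 at the bound. Osr1, Twist2 and Msx1, factors of limb and body-wall mesenchyme, had 0 counts in each comparison control. In the pair Osr1 was at 58.8 and 11.5 CPM, Twist2 at 30.02 and 24.0 CPM, and Msx1 at 9.40 and 10.3 CPM. Foxf2 was at 52.2 and 86.1 CPM against 0.110 to 0.266 CPM. The fixed markers Prrx1 and Twist1 were at 344 and 166 CPM and at 77.6 and 60.3 CPM, against at most 2.36 and 0.472 CPM. Tcf21, Six2 and Barx1 had 0 counts in both libraries.

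The Hox genes, which encode the position of a cell along the body axis, gave a partial code. Of the 39 listed symbols, held in 40 entries, 11 passed the filter, 9 were apart and higher and 0 were apart and lower, with a median of 5.43, or 4.79 at the bound. Hoxd8 was at 49.98 and 54.5 CPM and Hoxd9 at 14.6 and 14.6 CPM, against at most 0.055 CPM in the comparison controls. Hoxa3 was at 11.4 and 14.7 CPM and Hoxc13 at 19.3 and 12.05 CPM, against at most 0.177 and 0.236 CPM. Beyond the rule, the 5′ members of the A cluster were read after their values were seen, and Hoxa9, Hoxa10, Hoxa11 and Hoxa13 had 0 counts in both libraries. A count of 0 in a library allows up to 3 counts.

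Genes of the YAP and TEAD pathway, which responds to stiffness and cell spreading, were higher from the factors down to their targets. Of 16 listed, 16 passed the filter, 14 were apart and higher and 0 were apart and lower, with a median of 6.68, or 6.24 at the bound. Yap1 was at 1382 and 1089 CPM against 0.590 to 1.43 CPM. The factor Tead4 was at 13.8 and 7.34 CPM against 0 counts in each comparison control, and Tead2 at 115 and 143 CPM against 0.266 to 0.590 CPM. The target gene Ankrd1 was at 50.8 and 64.3 CPM, at least 273-fold higher. Ctgf, another target, was not apart, at 4.78 CPM in WT control 3 and 109 CPM in CRE control 3 against 10.3 to 15.4 CPM.

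Of 18 listed genes of marrow stroma and bone, 7 passed the filter, 5 were apart and higher and 1, Spp1, was apart and lower, with a median of 6.10. Cxcl12, the chemokine that retains blood stem cells in marrow, was at 717 and 348 CPM against 0.266 to 1.15 CPM. Angpt1 was at 45.9 and 14.1 CPM, Ebf3 at 29.2 and 18.7 CPM and the BMP antagonist Grem1 at 622 and 327 CPM. Lepr, a marker of marrow stromal cells, was at 0.111 and 0.298 CPM, and the osteoblast genes Bglap and Ibsp had at most 1 count in either library. Adipoq, of fat cells, likewise had at most 1 count. Of the other fixed osteoblast markers, Sp7 had 0 and 7 counts in the pair against 24, 18 and 11 in WT control 1, CRE control 1 and CRE control 2. Runx2, listed with the transcription factors, went the other way, with 708 and 950 counts against 218, 208 and 227.

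Among 36 growth factors and cytokines, 28 passed the filter, 20 were apart and higher, 5 were apart and lower, and the median was 4.48. Over all genes that passed, 12.0% were apart and higher and 13.5% apart and lower. Fgf10, a mesenchymal factor that acts on epithelium, was at 65.7 and 9.30 CPM against at most 0.059 CPM. Il6 was at 11.3 and 9.48 CPM against 0 counts in each comparison control. Csf1, the ligand of the receptor encoded by Csf1r, was at 662 and 603 CPM against 21.8 to 26.7 CPM, read after its value was seen. The 5 lower genes were Igf1, Mdk, Gas6, Spp1 and Tgfb1.

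Of 20 imprinted growth genes, 18 were in the table, 7 passed the filter, 5 were apart and higher, and 1 was apart and lower, with a median of 7.13, or 6.63 at the bound. Peg10 was at 25.6 and 16.2 CPM against at most 0.059 CPM, and Sgce, its neighbour, at 48.3 and 39.7 CPM against 0.212 to 0.236 CPM. Cdkn1c, an imprinted inhibitor of cell division, had 0 counts in both libraries and 8.52 to 15.9 CPM in the comparison controls, at least 97.8-fold lower.

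On the macrophage side, the surface and secreted genes were lower throughout the members that passed. Of 33 listed, 32 passed the filter, 32 were apart and lower and 0 were apart and higher, with a median of -12.1, or -10.1 with 16 members at their bound. The list summed to 108 and 80.6 CPM in the pair and to between 54210 and 55400 CPM in the comparison controls. Adgre1, C1qb, C1qc and Cd84 led by size and stood at 0 counts in both libraries, as did the fixed markers Itgam and C1qa. Mertk and Fcgr1, further fixed markers, were at 1.39 and 0.656 CPM and at 0.222 and 0 CPM. Cd14, the coreceptor for lipopolysaccharide, kept more than these markers, at 49.2 and 34.5 CPM against 333 to 461 CPM.

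Myeloid transcription factors divided into those near 0 and those that many cells use. Of 22 listed, 20 passed the filter, 17 were apart and lower and 0 were apart and higher, with a median of -4.52. Spi1 was at 0.167 and 0 CPM against 473 to 502 CPM, at least 3580-fold lower. Irf8, Ikzf1 and Fli1, factors of myeloid and lymphoid development, had 0 counts in both libraries and at least 237, 75.05 and 71.7 CPM in every comparison control. Cebpb, Klf4 and Runx1, which many cell types use, were not apart, with log2 differences of 0.49, 0.49 and -0.42.

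Signalling genes of leukocytes were lower almost without exception. Of 36 listed and 35 in the table, 35 passed the filter, 34 were apart and lower and 0 were apart and higher, with a median of -11.9, or -10.4 at the bound. Ptprc, read as a fixed leukocyte marker, was at 0.056 and 0 CPM against 390 to 399 CPM. Syk, a kinase of immune receptors, and Pirb, an inhibitory receptor, had 0 counts in the pair and at least 278 and 204 CPM in the comparison controls. Lcp1, an actin bundling protein of leukocytes, was at 0 and 0.060 CPM against 1910 to 2180 CPM. Arhgdib alone was not apart, at 171 and 128 CPM against 231 to 253 CPM. All 6 genes of the phagocyte oxidase, the enzyme of the respiratory burst, were apart and lower, with a median of -12.9, or -11.0 at the bound. Cybb, its catalytic subunit, was at 0 and 0.119 CPM against 610 to 620 CPM, and Rac2, Cyba and Ncf1 were at or below 0.167 CPM in the pair.

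Lysosomal genes were lower in degree rather than absent. Of 26 listed, 26 passed the filter, 20 were apart and lower and 0 were apart and higher, with a median of -3.67. The list summed to 6556 and 5931 CPM in the pair and to between 69670 and 74790 CPM in the comparison controls. Ctsc, cathepsin C, had 0 counts in both libraries, and Atp6v0d2, a proton pump subunit of macrophages and osteoclasts, was at 0.056 and 0.239 CPM against 308 to 594 CPM. Read after their values were seen, the general lysosome genes Ctsd, Lamp1 and Lamp2 had differences of -5.32, -1.57 and -0.91.

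Of 26 innate sensors, 24 passed the filter, 19 were apart and lower and 0 were apart and higher, with a median of -5.90, or -4.96 at the bound. Clec7a, the beta-glucan receptor dectin-1, and Cd300ld had 0 counts in the pair. The scavenger receptor Cd36 and the RNA sensor Tlr13 were at or below 0.167 CPM, against at least 2216 and 698 CPM. Tlr2 and Nod1 were not apart, at 130 and 87.6 CPM and at 23.2 and 11.99 CPM in the pair. Of 7 MHC class II genes, 6 passed the filter and 6 were apart and lower, with a median of -8.22, or -6.01 at the bound. H2-Ab1, H2-Aa and H2-Eb1 had 0 counts in both libraries, and H2-DMb1 was at 1.06 and 1.43 CPM against 34.6 to 45.5 CPM.

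The STING pathway was mixed. Of 9 listed genes and 8 in the table, 7 passed the filter and 2 were apart and lower, against 13.5% of all genes, with a median of -1.42. The 2 were Enpp1, which degrades cGAMP, at 0.667 and 1.97 CPM against 43.2 to 46.5 CPM, and the kinase Ikbke, at 17.7 and 7.57 CPM against 39.0 to 55.6 CPM. The kinase Tbk1 was at 56.8 and 51.1 CPM against 111 to 117 CPM, and Irf7 had a difference of -1.90. Of 20 interferon-stimulated genes in the controls, 16 passed the filter and 4 were apart and lower, against 13.5% of all genes. The 4 were Ifih1, Oas1a, Rsad2 and Oas2, and the median over the 16 was -0.94.

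**Figure D2:**
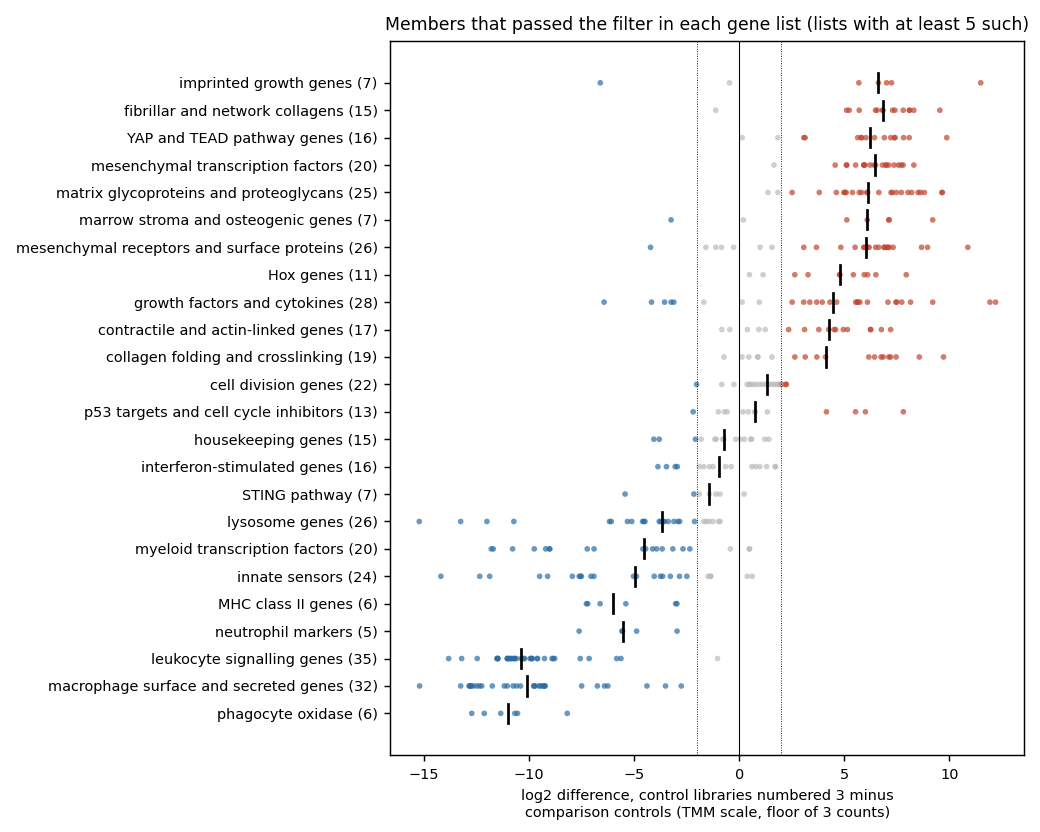
Log2 difference between the control libraries numbered 3 and the comparison controls (horizontal axis, genes at the floor drawn at their bound) for each member that passed the filter, in the 24 lists with at least 5 such members. Red points are apart and higher, blue points apart and lower, grey points neither, and a bar marks the median. Medians run from 6.85 in collagens to -11.0 in the phagocyte oxidase.

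Most marker genes of other cell types did not pass the filter. Of 12 epithelial markers and 14 lymphoid and erythroid markers, 0 passed the filter, and each list summed to at most 3.56 CPM in either library. Epcam and Krt18 had 0 counts in both, whereas Grhl2 had 46 and 19 counts in the pair and 0 in each comparison control. The 13 endothelial markers summed to 13.95 and 6.44 CPM, of which Flt1 held 10.45 and 4.71 CPM, and Pecam1, Cdh5, Kdr and Tek were below 0.78 CPM. The 2 endothelial markers that passed the filter, Kdr and Vwf, were apart and lower. The 12 neutrophil markers summed to 3.89 and 2.09 CPM, and 5 passed the filter and were apart and lower. The 11 dendritic cell markers in the table summed to 4.56 and 5.07 CPM, with Flt3 at 0 counts in both and Itgax, the 1 that passed the filter, at 0.111 and 0 CPM. Zbtb46, another fixed marker, held most of these sums and went the other way. It had 75 and 60 counts in the pair against 5, 5 and 1 in WT control 1, CRE control 1 and CRE control 2. Among muscle, fat and cartilage markers, 3 of 13 passed the filter, of which Sox9 and Des were apart and higher and Pparg was apart and lower, with a median of 5.66. This list summed to 73.99 and 59.4 CPM in the pair and to between 33.4 and 40.7 CPM in the comparison controls. Sox9 was at 49.3 and 45.0 CPM and Des at 11.2 and 6.08 CPM, while Myod1, Myog, Acan and Cidec had 0 counts. The 6 control BMDC libraries had Lyz2 at a median of 6996 CPM and Col1a1 at a median of 3.11 CPM.

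Most genes of cell division were not apart. Of 22 listed, 22 passed the filter, 4 were apart and higher, against 12.0% of all genes, 1 was apart and lower, 17 were neither, and the median was 1.31. Ccnb1, cyclin B1, was at 152 and 173 CPM against 23.5 to 34.0 CPM, and Cdc20 and Plk1 had differences of 2.22 and 2.01. Pcna, the sliding clamp of DNA replication, was lower, at 216 and 255 CPM against 747 to 778 CPM. Of 16 p53 targets and cell cycle inhibitors, 13 passed, 4 were apart and higher, against 12.0% of all genes, and 1, Rb1, was apart and lower, with a median of 0.74. Cdkn2a, which encodes the inhibitors p16 and p19ARF, was at 271 and 206 CPM against 0.767 to 0.903 CPM, and Cdkn2b at 67.6 and 48.4 CPM against 0.478 to 1.06 CPM.

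Mdm2, which encodes the ubiquitin ligase of p53, was at 7047 and 7716 CPM in the pair and at 119 to 135 CPM in the comparison controls, a 46.5-fold difference. By FPKM, which accounts for length, its mean of 1126 ranked 12 among protein-coding genes in the pair, against 23.0 in the comparison controls. It lies at chr10:117688875-117710758. Its neighbour Slc35e3, a putative sugar transporter at chr10:117733679-117746365, was at 1943 and 1862 CPM against 14.6 to 18.3 CPM, and nearby Nup107, Cpsf6, Rap1b and Yeats4 had log2 differences of 1.40, 0.39, -1.43 and -0.84, none of them apart. Lyz2, at chr10:117277331-117282321, lies on the same chromosome and was near 0. The neighbours were read after the value of Mdm2 was seen.

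The 4 Y-linked genes Ddx3y, Eif2s3y, Kdm5d and Uty had 0 counts in both libraries numbered 3, against at least 78.7, 53.5, 18.6 and 17.8 CPM in every comparison control. Xist, of the inactive X chromosome, was at 0.056 and 0 CPM in the pair and at 0 in the comparison controls. Over all 1570 genes placed on the Y chromosome, the 4 libraries numbered 3 held 617 to 897 counts and the other 20 libraries of the series 2495 to 4996. Only 2 or 3 of the 1570 genes had more than 3 counts in each library numbered 3, against 6 to 11 in each of the other 20. Of 15 housekeeping genes, 15 passed the filter, 3 were apart and lower, against 13.5% of all genes, and 0 were apart and higher, with a median of -0.73. The 3 were Rps18, Gusb, a lysosomal enzyme, and B2m, with differences of -4.06, -3.81 and -2.08. Rps18 has many processed copies in the genome among which reads can be split.

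The signal left in the pair was computed for each of the 1608 lower genes as its CPM in percent of the mean of the comparison controls. The median was 4.88% in WT control 3, with quartiles of 0.0252% and 18.6%, and 3.69% in CRE control 3, with quartiles of 0% and 15.8%. For the 645 genes lower by at least 64-fold the median was 0% in both. In all, 313 of the 1608 genes had 0 counts in both libraries and 517 kept more than 10% in both. The genes were picked for being at least 4-fold or 64-fold lower, so that choice itself keeps these percentages low. The 1608 also include genes that are not particular to macrophages, such as Pcna, Rb1 and Rps18, so the percentages do not measure macrophage RNA.

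WT control 2 held a small and uneven amount of the RNA that was high in the pair. For each of the 1438 higher genes, its excess over the comparison controls was taken in percent of the excess in the pair, and the median was 4.19%, with quartiles of 0.753% and 9.69%. It was below 1% for 388 genes and above 20% for 135. Col1a1 was at 1.502%, Col1a2 at 3.33% and Yap1 at 1.39%, while Ptn was at 0.0191% and Dlk1 at -0.0008%. Acta2 was at 23.8%, read after its value was seen. A single share did not hold across genes.

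**Figure D3:**
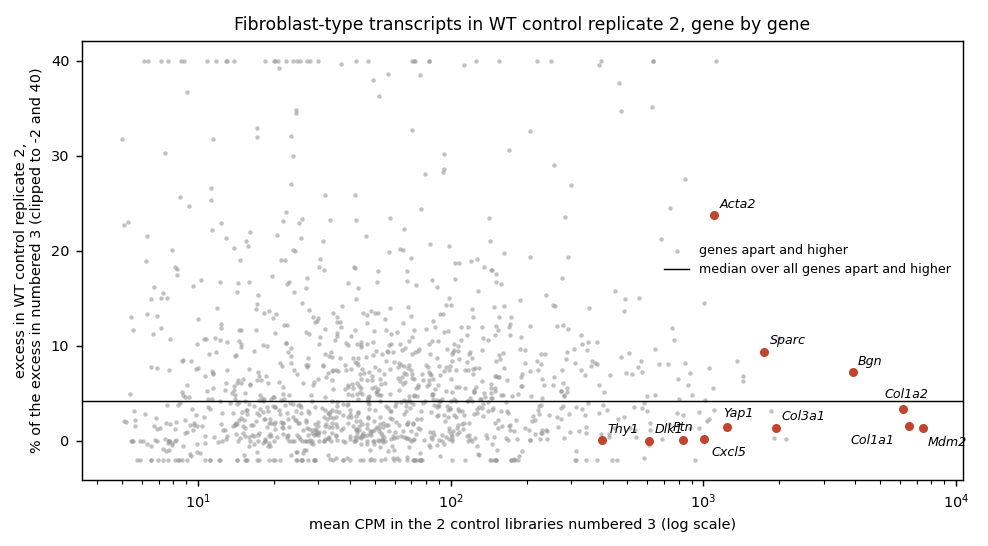
Excess in WT control 2 over the comparison controls, in percent of the excess in the control libraries numbered 3 (vertical axis, clipped at -2 and 40), against mean CPM in those libraries (log axis), with 1 point per higher gene of at least 5 CPM. The line marks the median of 4.19%, Ptn, Dlk1 and Thy1 lie near 0, and Acta2 lies far above the line.

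Of 337 genes at least 4-fold higher in WT control 2 than in the comparison controls, 232 were among the 1438 and 77 were at least 4-fold above the libraries numbered 3 as well. Both the 337 and the 77 include short noncoding RNAs that passed at a few counts, such as Mir132 at 0.264 CPM in WT control 2. The 77 included macrophage-type genes such as Il1rn, at 642 CPM in WT control 2 against 22.4 and 4.41 CPM in the pair, and Clec4e, at 279 CPM against 0.222 and 0 CPM. They also included the crosslinking enzyme Loxl2, at 30.7 CPM against 1.89 and 3.76 CPM, the imprinted Cdkn1c, at 102 CPM against 0, and Sp7, a factor of osteoblasts, at 7.51 CPM against 0 and 0.417 CPM. The Hox genes differed too. WT control 2 had Hoxa9 at 2.75 CPM, Hoxa10 at 3.28 CPM, Hoxa11 at 1.69 CPM and Hoxc10 at 3.38 CPM, each at 0 counts in the pair. In turn Hoxd8 was at 0.529 CPM in WT control 2, against 49.98 and 54.5 CPM in the pair. These genes were chosen after their values were seen.

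**Figure D4:**
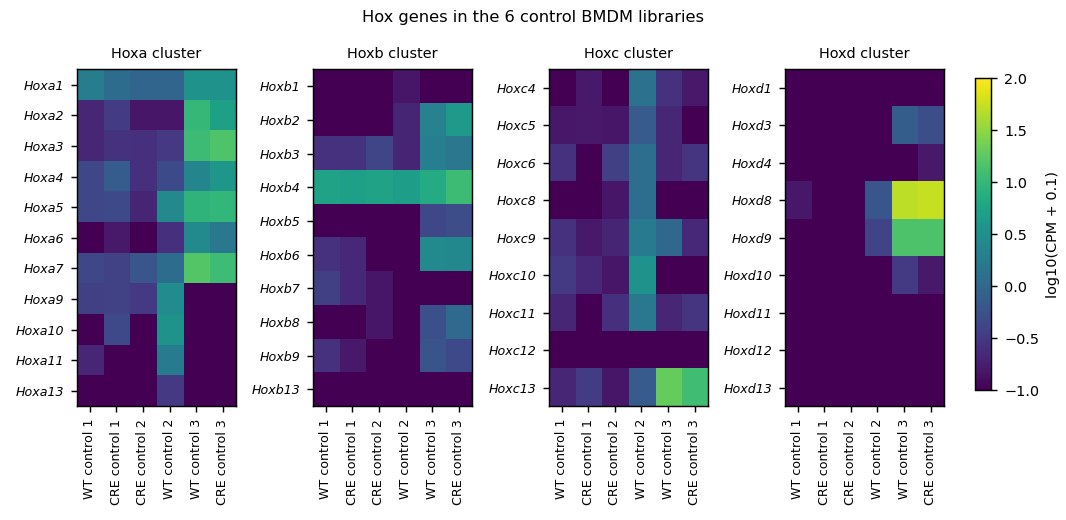
Log10 of CPM + 0.1 (colour) of the Hox genes of the 4 clusters in the 6 control BMDM libraries, 1 column per library. WT control 3 and CRE control 3 share Hoxa2 to Hoxa7, Hoxc13, Hoxd8 and Hoxd9, whereas WT control 2 holds Hoxa9 to Hoxa11 and Hoxc10 at low levels.

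WT control 3 and CRE control 3 differed from each other in many genes. Of 6791 genes, 424 (6.24%) differed by at least 2-fold between them, 239 higher in WT control 3 and 185 higher in CRE control 3, with 1 library on each side and no test. Between WT control 1 and the CRE comparison controls, 95 of 6622 genes (1.43%) and 103 of 6624 genes (1.55%) differed so, and between CRE control 1 and CRE control 2, of 1 label, 20 of 6460 genes (0.31%). CRE control 1 and CRE control 2 may share a culture, so 0.31% may understate the spread between separate cultures. The 424 included Col1a1 and Acta2. Of the 424 genes, 416 kept their sign between WT DMXAA 3 and CRE DMXAA 3, and 252 were again at least 2-fold apart. The genotype label and any other difference between the 2 cultures cannot be told apart.

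The genes named for this pair were chosen after their values were seen. Higher in WT control 3 were Enpp2, which makes lysophosphatidic acid, at 158 against 7.57 CPM, Ptx3, a secreted pattern recognition protein, at 262 against 41.4 CPM, Lcn2, lipocalin 2, at 258 against 33.6 CPM, and Gas1 at 732 against 116 CPM. Higher in CRE control 3 were Tnnt2, a troponin, at 139 against 5.11 CPM, and Pmepa1, an inhibitor and target of TGF-beta signalling, at 808 against 36.0 CPM. Postn and Tnc, matrix proteins of activated fibroblasts, were at 481 against 46.2 CPM and at 484 against 84.4 CPM, and Inhba, a subunit of activin, at 385 against 54.7 CPM. Each of these 9 genes had the same sign in the DMXAA pair.

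The DMXAA libraries numbered 3 give the same contrast in libraries that the selection did not use. They share no library with the control comparison, but earlier results of these data had already shown that they stand apart, and a control and a DMXAA library of 1 number may share a culture, so they are not independent support. With edgeR's quasi-likelihood test, 12111 genes passed the filter. At a Benjamini-Hochberg adjusted p under 0.05, 3545 genes (29.3%) were higher and 3509 (29.0%) lower in WT DMXAA 3 and CRE DMXAA 3 than in WT DMXAA 1, CRE DMXAA 1 and CRE DMXAA 2. Scaling by total counts would add a median of 0.646 over the genes to the log2 difference and shift the calls to 5455 higher and 2249 lower. Of the 1438 genes higher in the controls, 1391 were tested here and 1311 were called higher (94.2%), with 1 called lower. Of the 1608 lower genes, 1514 were tested, 1456 were called lower (96.2%) and 0 were called higher.

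Col1a1, Col1a2, Lyz2, Csf1r and Cd68 define the contrast by which the number was chosen, so their p-values here are no support for it. Col1a1 was at 4190 and 6676 CPM in the DMXAA pair and at 7.10 to 8.79 CPM in the comparison, a log2 difference of 8.79 ± 0.33 (SE, 2 against 3 libraries, edgeR adjusted p = 8.33e-05). Col1a2 had a difference of 7.80 ± 0.28 (SE, edgeR adjusted p = 7.48e-05). Lyz2 was at 8.65 and 9.58 CPM against 3126 to 5588 CPM, a difference of -9.48 ± 0.64 (SE, edgeR adjusted p = 0.000235). For Csf1r and Cd68 the differences were -9.19 ± 0.49 and -11.51 ± 0.29 (SE, edgeR adjusted p = 0.000133 and 7.41e-05). Tmem173, at 64.03 and 44.9 CPM against 18.7 to 50.3 CPM, was not called, with 0.14 ± 0.58 (SE, edgeR adjusted p = 0.853).

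By list, calls under DMXAA ran in the directions of the controls. Over all 12111 genes, 29.3% were called higher and 29.0% lower. A call here rests on an adjusted p and not on the 4-fold rule of the controls, so the counts of the 2 comparisons are not on the same scale. The filter again lets through genes that are expressed in only 1 of the groups. It kept 15 of 18 listed collagens, 20 of 30 transcription factors, 25 of 33 matrix genes and 10 of 40 Hox entries. The lists were chosen with earlier results known, so these counts describe the libraries and are no support for a difference. Of 15 collagens tested, 14 were called higher and 0 lower, of 20 mesenchymal transcription factors 20 and 0, of 25 matrix genes 24 and 0, and of 10 Hox genes 9 and 0. Of 31 macrophage surface genes tested, 0 were called higher and 30 lower, and of 35 leukocyte signalling genes 0 and 35. Of 26 lysosome genes, 26 were called lower, among them 6 that had not been apart in the controls. Of 20 interferon-stimulated genes, 16 were called lower and 0 higher, with a median log2 difference of -2.68. Cell division genes numbered 19 called higher and 2 called lower of 22.

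The response to DMXAA within the libraries numbered 3 was compared last, with 2 DMXAA against 2 control libraries, a comparison added after the data were seen. It shares its libraries with both contrasts above. All 20 interferon-stimulated genes were higher in both DMXAA libraries than in both controls, with a median log2 difference of 4.83 against -0.0028 over all 11073 genes. With the genotype label as a term, edgeR called 546 genes higher (4.93%) and 358 lower (3.23%) at an adjusted p under 0.05, and the 20 interferon-stimulated genes were all called higher. Without that term edgeR called 0 genes higher (0%) and 0 lower (0%), with 453 genes at an unadjusted p under 0.05, and DESeq2 called 150, of which 18 were on the list. The lowest adjusted p on the list without the term was 0.0575. The difference between WT control 3 and CRE control 3 enters the spread when the label has no term. With the term, few degrees of freedom are left, so SE and p lean on spread shared across genes.

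Isg15, a ubiquitin-like protein induced by interferon, went from 11.4 and 5.96 CPM in WT control 3 and CRE control 3 to 314 and 355 CPM under DMXAA, a log2 difference of 5.27 ± 0.21 (SE, label as a term, edgeR adjusted p = 2.9e-07). Without that term Isg15 was at 5.27 ± 0.38 (SE, edgeR adjusted p = 0.0694) and was not called. In the comparison libraries it went from 2.83 to 3.88 CPM to 764 to 1948 CPM. Ifit1, an antiviral RNA-binding protein, went from 13.2 and 4.47 CPM to 318 and 216 CPM, and Usp18, which removes ISG15 from proteins, from 6.50 and 3.76 CPM to 178 and 187 CPM. Rsad2, the antiviral enzyme viperin, reached 41.2 and 19.5 CPM in the libraries numbered 3 and 2905 to 17530 CPM in the comparison libraries. Bst2, tetherin, reached 665 and 731 CPM, and the comparison libraries, at 508 to 679 CPM, overlapped with them.

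By label and number, the median log2 response of the 20 genes was 4.31 and 5.15 in WT and CRE libraries numbered 3, and 8.27, 6.72 and 7.04 in WT 1, CRE 1 and CRE 2. Increases of at least 2-fold were counted for 19 genes in the WT and 20 genes in the CRE libraries numbered 3, and for 20 genes in each comparison pair. The 2 ranges of medians did not overlap, but the difference in response was not tested. Ifnb1, the interferon beta gene, had at most 2 counts in any of the 4 libraries. Of 15 collagens with a value here, 1 was called higher and 0 lower with the label as a term, and of 21 mesenchymal transcription factors 0 were called higher and 1 lower. Of 22 cell division genes, 0 were called higher and 11 lower. Over all 11073 genes, 4.93% were called higher and 3.23% lower with that term. Ifi27, named after its values were seen, fell from 75.2 and 63.15 CPM to 15.2 and 13.6 CPM (edgeR adjusted p = 8.61e-07 with the label as a term and 0.0735 without it).

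**Figure D5:**
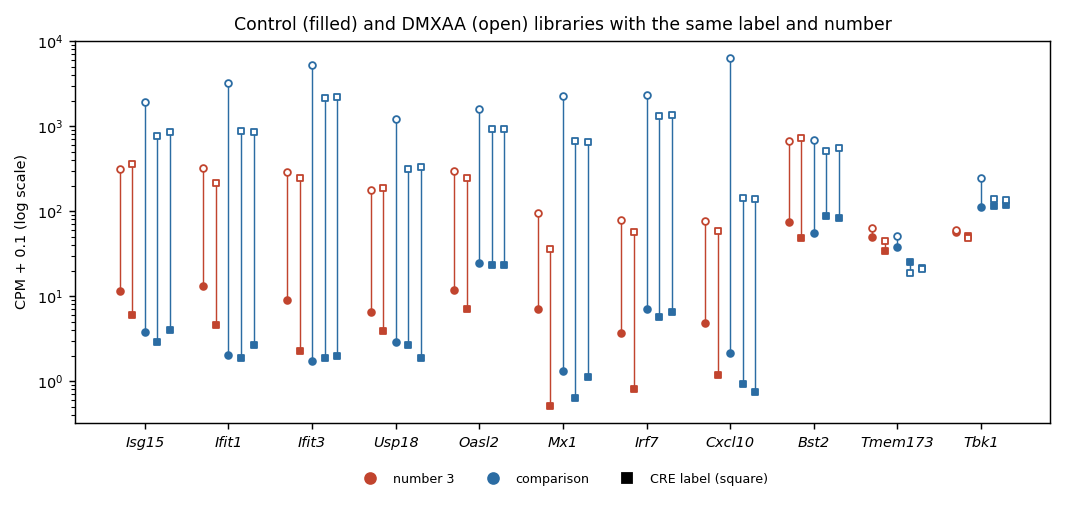
CPM + 0.1 on a log axis of 11 genes in control (filled) and DMXAA (open) libraries of the same label and number, joined by a line, with circles for WT and squares for CRE. Red pairs are numbered 3 and blue pairs are the comparison, the DMXAA library of each pair is the higher one in the genes from Isg15 to Bst2, and the red DMXAA libraries lie below the blue ones in these genes except Bst2.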

How the data were processed

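RNA was extracted with TRIzol, libraries were made with the NEBNext Ultra RNA kit after poly(A) selection, and whether strand was used in counting is not given in the sources used here. The submitters' processing notes name CASAVA 1.8, fastp, HISAT2 2.0.5, featureCounts 1.5.0-p3 and DESeq2 1.20.0, with GRCm38 (mm10) as the genome. The authors deposited raw counts per gene and FPKM values, which the authors computed from these counts, gene length and depth. The authors also deposited columns of their own DESeq2 comparisons (group means, log2 fold changes, p-values and adjusted p-values), which were not used. All 48 per-library columns matched a sample by name, and 0 did not. The table held 54532 genes, 0 of them without a name.

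The libraries and the 30 gene lists were chosen with earlier results of these data known. Genes were kept where FPKM reached 1 in 2 libraries of a comparison. Counts were scaled by TMM and log2 differences were fitted with edgeR 4.0.16 in R 4.3.3 (limma 3.58.1), with a prior count of 0.125. A gene was apart where the groups did not overlap and differed by at least 4-fold (2 on the log2 scale). The DMXAA libraries were tested with edgeR's quasi-likelihood test at a Benjamini-Hochberg adjusted p of 0.05. Folds against groups with at most 3 counts per library are bounds at 3 counts. Printed CPM are per total counts, which were 16470157 to 18912887. Bounds cover counting error only.

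Named genes were 6 fixed genes, the 10 largest differences in each direction among apart genes whose mean FPKM reached 20 in the higher group, up to 4 members of each list by size, and the defining members of lists. Other genes, such as list members that were exceptions, were chosen after their values were seen. DESeq2 1.42.0 and limma were alternatives, as were other filters, scalings and left-out libraries. On simulated data for the DMXAA comparison of 12111 genes, 77% of 4-fold and 100% of 16-fold changes were recovered, with 10 false calls. The simulation held 100 changed genes of each size, as many up as down. It does not cover differences in as many genes as were called in the data, nor the choice of scaling. Figures were drawn with Python 3.11.15 and matplotlib 3.10.9. Results of some items are not reported here.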

Additional observations from a re-analysis of the deposited data

How the results depend on the processing

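The count of genes apart in the controls was 3046 (1438 higher, 1608 lower). It was 6589 (3817 and 2772) with no filter, 1795 (781 and 1014) with an FPKM of at least 5, 5269 (2513 and 2756) at 2-fold and 1792 (889 and 903) at 16-fold, and 3022 to 3135 with 1 library left out. Without a filter the median of muscle, fat and cartilage markers was -0.341 in place of 5.66. Calls under DMXAA were 5455 higher and 2249 lower with total counts as the scale, and 4868 to 8264 in all with 1 library left out. The difference of Tmem173 in the controls was -0.04867 to 0.4711 with 1 library left out. The difference of Tmem173 under DMXAA, which was not called, ranged from -0.1582 to 0.9086 with 1 library left out, and was -0.1582 without CRE DMXAA 1, -0.1313 without WT DMXAA 3 and -0.118 without CRE DMXAA 2, against 0.1379. Within the libraries numbered 3, the count called between DMXAA and control was 0, with 0 interferon-stimulated genes. It was 105 and 18 with no filter, 904 and 20 with the label as a term, which sets each DMXAA library against the control of its own label and number, and 150 and 18 with DESeq2. With 1 library left out it was 0 to 88, with 0 to 19 interferon-stimulated genes, and was 88 and 19 without WT control 3 and 35 and 14 without CRE control 3. The single library then left in an arm is assumed to vary like the others. The share in WT control 2 was 3.14% over genes at least 64-fold apart and 4.8% over genes of at least 50 CPM. The median signal left of the lower genes was 0% in WT control 3 and 0% in CRE control 3 over genes at least 64-fold apart. At 4-fold, 101 genes differed between WT control 3 and CRE control 3. The causes of these changes were not tested. No paired analysis was possible because the libraries numbered 3 and the comparison libraries share no number. This holds for those comparisons only, since the fit with the label as a term pairs the libraries numbered 3.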

Other observations

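Median log2 differences between the control libraries numbered 3 and the comparison controls differed between chromosomes, with 0.542 on chromosome 15, 0.519 on chromosome X and -0.412 on chromosome 4. These are values over the genes that passed the filter, with no test.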
